A study of Homo sapiens with 12 samples.

Results

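The response of T47D cells to the PI3K alpha inhibitor BYL719 (alpelisib) was compared between NF1 knockout cells (NF1KO) and their control line (CTRL). The quantity described is, for every expressed gene, the log2 fold change of BYL719 against DMSO in NF1KO less the same log2 fold change in CTRL, called the difference of effects. A value above 0 marks a gene that stood higher after BYL719 in NF1KO than its change in CTRL would give, and a value below 0 the reverse. All genes that passed the filter on low counts were taken, 16081 of the 27864 in the count table, and no measured change entered that choice. The comparison used 11 of 12 labelled libraries of mRNA: 3 of CTRL in DMSO, 3 of CTRL in 3 µM BYL719, 2 of NF1KO in DMSO (replicates 2 and 3) and 3 of NF1KO in 3 µM BYL719, each after 48 h. NF1KO DMSO replicate 1 was not analysed here. T47D is an established luminal, estrogen receptor-positive breast cancer line that carries an activating PIK3CA mutation, which all 4 groups share. How the knockout was made, whether NF1KO is a single clone, and whether replicates came from separate cultures are not given in the sources used here, so a line difference cannot be told apart from a clone difference, and p-values measure the spread between these libraries only.

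PI3K alpha makes the lipid signal that activates AKT, and AKT keeps FOXO transcription factors out of the nucleus and feeds growth signals to mTOR and cyclin D. Blocking it in PIK3CA-mutant luminal cells is known to release FOXO targets and to stop cells in G1. The NF1 product, neurofibromin, speeds the hydrolysis of GTP on RAS and so switches it off, and RAS in turn drives both the ERK cascade and PI3K. Genes of S phase are transcribed by E2F factors once RB is phosphorylated. Genes of mitosis are transcribed through the DREAM and MYB-FOXM1 complexes, which read the cell cycle homology region, CHR. CCAAT boxes are often found near the CHR.

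NF1 itself stood at 289, 209 and 249.99 CPM (counts scaled to library size) in the CTRL DMSO libraries and at 214, 147 and 152 CPM in CTRL BYL719, against 0.48 and 0.471 CPM and 0.891, 0.547 and 0.4 CPM in the NF1KO libraries of the same treatments. Libraries held between 53283945 and 60148876 counts, of which ribosomal RNA genes took 8.45% to 12.3%. All 9 markers of luminal breast epithelium were present, with a summed level of 9926 to 13997 CPM. Of 10 immune markers 8 stayed under 1 CPM in every library and NKG7 was at 0 (summed level 1.90 to 3.80 CPM), all 7 endothelial markers stayed under 1 CPM, and of 10 fibroblast markers 8 did so and FAP was at 0. The fibroblast sum of 18.4 to 57.1 CPM was carried mainly by COL1A1, which reached 55.2 CPM, and was highest in CTRL DMSO (51.7 to 57.1 CPM). The part of these markers in the results was not tested. The number-1 libraries of CTRL, in DMSO and in BYL719, stood apart from replicates 2 and 3 of their groups (chi-square per gene of 52.2 to 70.0, against 7.11 and 11.8 between replicates 2 and 3), and several counts below are also given without both of them. NF1KO BYL719 replicate 3 stood apart less (27.0 and 35.5, against 10.6 between replicates 1 and 2). In bulk RNA, fewer cells of a kind and less RNA per cell cannot be told apart, which holds for every cell-cycle gene described here.

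Part of the transcriptome responded differently to BYL719 in the lines. The difference of effects was called (adjusted p under 0.05, edgeR's quasi-likelihood test with Benjamini-Hochberg adjustment, 7 residual degrees of freedom) for 1510 genes, 9.39% of those tested: 914 above 0 (5.68%) and 596 below 0 (3.71%). Of these, 313 and 167 differed by more than 2-fold. The calls leaned on the pair of NF1KO DMSO libraries: 523 and 243 genes were called without replicate 2, and 495 and 245 without replicate 3. Without CTRL DMSO replicate 2, 377 genes were called below 0, and without CTRL BYL719 replicate 1, 922. Without both CTRL number-1 libraries 1393 genes were called above 0 and 1018 below. The genes called both here and in each of these fits had the same sign in each.

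More genes were called in CTRL than in NF1KO. BYL719 raised 3628 genes (22.6%) and lowered 3504 (21.8%) in CTRL, and raised 1652 (10.3%) and lowered 1362 (8.47%) in NF1KO, where fewer libraries were compared. Without NF1KO DMSO replicate 2, without NF1KO DMSO replicate 3 and without NF1KO BYL719 replicate 2, the NF1KO counts were 615 and 433, 459 and 329, and 1022 and 772. The contrasts of CTRL and NF1KO share no library, but both came from a fit to all 4 groups with a common estimate of spread. Without both CTRL number-1 libraries the NF1KO counts were 2764 and 2548. The 826 genes raised more than 2-fold in CTRL had a median log2 change of 1.47 there and 0.81 in NF1KO, and the 650 lowered more than 2-fold had medians of -1.34 and -0.31. The 340 genes raised more than 2-fold in NF1KO, chosen by NF1KO, had medians of 1.33 in CTRL and 1.43 in NF1KO. The genes called as raised in NF1KO at any size had medians of 0.62 in CTRL and 0.56 in NF1KO, and those called as lowered -0.41 and -0.40. Choosing genes by a line's own change inflates that line's median, so these medians are a description. Of the genes raised in NF1KO, 1341 were also raised in CTRL (81.2% of the NF1KO list and 37.0% of the CTRL list), and 1054 were lowered in both (77.4% and 30.1%). Across the 16081 genes, which are not independent, the log2 changes of the lines correlated at a Pearson r of 0.61 and a Spearman rho of 0.64.

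**Figure D1:**
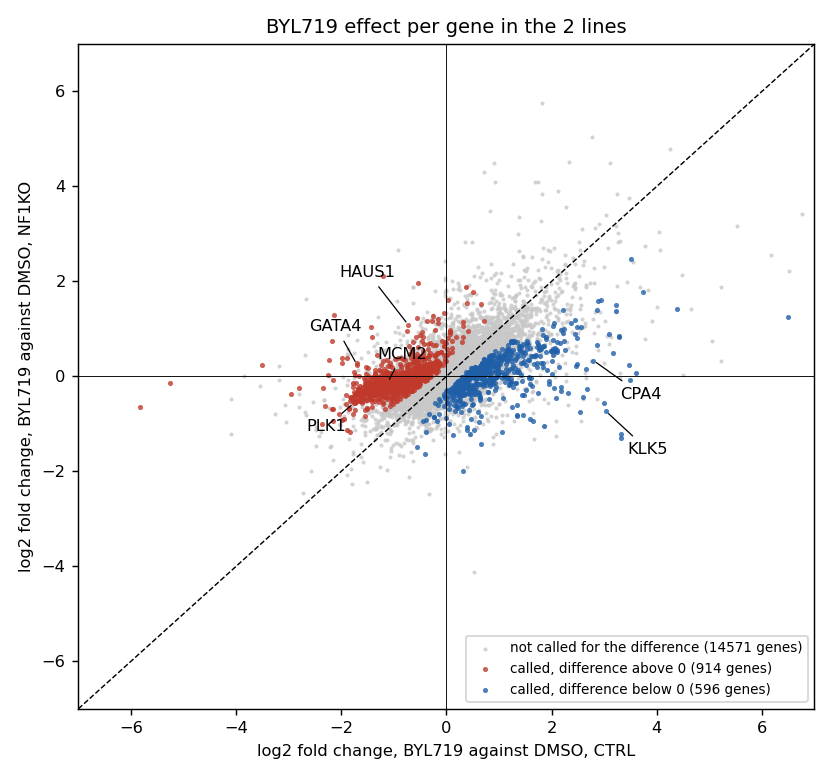
Each point is a gene, with the log2 fold change of BYL719 against DMSO in CTRL on the x axis and in NF1KO on the y axis; the dashed line marks equal change. Red points (914) were called for a difference above 0 and blue points (596) for a difference below 0. MCM2, PLK1 and GATA4 lie left of 0 and above the dashed line, CPA4 and KLK5 lie right of 0 and below it, and HAUS1 is lower in CTRL and higher in NF1KO.

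A replicative helicase subunit, a mitotic kinase, a GATA factor and a secreted carboxypeptidase show the main patterns. MCM2 (Entrez 4171, chromosome 3, 127598411 to 127622436), a subunit of the helicase that unwinds replication origins, stood at 183, 188 and 194 CPM in CTRL DMSO and at 90.1, 84.0 and 86.8 CPM in CTRL BYL719. In NF1KO it stood at 200.3 and 207 CPM in DMSO and at 189, 181 and 189 CPM in BYL719. The CTRL BYL719 libraries lay far below all others, and in NF1KO the DMSO libraries lay above the BYL719 libraries by a small margin. The log2 change was -1.12 ± 0.057 (SE) in CTRL and -0.13 ± 0.062 (adjusted p = 0.167) in NF1KO, and the difference of effects was 0.99 ± 0.085 (adjusted p = 3.48e-05).

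PLK1 (Entrez 5347, chromosome 16, 23678889 to 23690367) is the kinase that drives mitotic entry and spindle assembly. Its fall in NF1KO was called, while that of MCM2 was not, and the genes were not tested against each other. PLK1 measured 128, 142 and 140.3 CPM in CTRL DMSO and 41.3, 40.6 and 39.3 CPM in CTRL BYL719, against 162 and 168 CPM and 108, 109.8 and 117 CPM in NF1KO. The treated libraries lay below the untreated ones in both lines, without overlap. Its log2 change was -1.76 ± 0.064 in CTRL and -0.56 ± 0.069 (adjusted p = 0.000338) in NF1KO, with a difference of 1.201 ± 0.095 (adjusted p = 2.62e-05).

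GATA4, a zinc finger transcription factor of endoderm and heart, was expressed at a low level and had the largest difference above 0 among genes with a mean of at least 2 on the log2 CPM scale that fell in CTRL. It measured 9.1, 8.73 and 9.26 CPM in CTRL DMSO and 2.91, 2.46 and 2.95 CPM in CTRL BYL719. In NF1KO it measured 12.3 and 11.8 CPM in DMSO and 12.9, 13.4 and 16.7 CPM in BYL719. The untreated and treated libraries did not overlap in CTRL, and in NF1KO the treated libraries lay slightly above the untreated ones. The log2 change was -1.702 ± 0.12 in CTRL and 0.25 ± 0.12 (adjusted p = 0.172) in NF1KO, a difference of 1.95 ± 0.17 (adjusted p = 3.48e-05).

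CPA4 (Entrez 51200, chromosome 7, 130293161 to 130324180), a secreted carboxypeptidase, showed the reverse. It rose in CTRL from 5.19, 6.94 and 5.96 CPM to 41.7, 41.2 and 42.7 CPM, while NF1KO went from 12.3 and 11.4 CPM to 14.8, 14.7 and 15.4 CPM. Every NF1KO library, treated or not, lay between the CTRL groups. The log2 change was 2.80 ± 0.096 in CTRL and 0.33 ± 0.10 (adjusted p = 0.0407) in NF1KO, where the call was lost without either NF1KO DMSO library, among other settings, and the difference was -2.46 ± 0.14 (adjusted p = 9e-06).

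**Figure D2:**
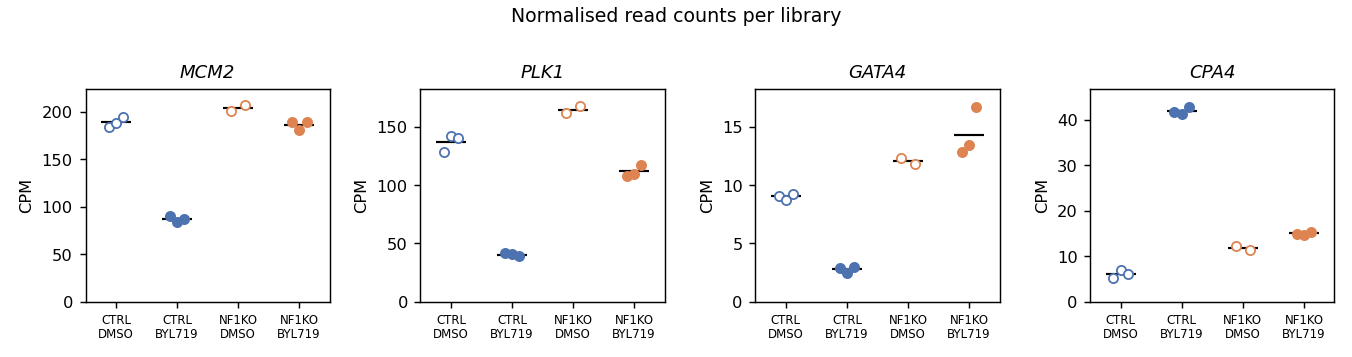
Normalised read counts (CPM, y axis from 0) of MCM2, PLK1, GATA4 and CPA4 in each library by line and treatment; open points are DMSO, filled points BYL719, bars the group means. MCM2, PLK1 and GATA4 dropped in CTRL BYL719 alone or most there, and CPA4 climbed to 41.2 to 42.7 CPM in CTRL and stayed at 14.7 to 15.4 CPM in NF1KO.

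Genes of DNA replication and nucleotide supply fell in CTRL and changed little in NF1KO. All 45 fell in CTRL (median log2 change -1.07) and 5 of 45 in NF1KO (median -0.14), beside 21.8% and 8.47% of all genes. The difference of effects was called above 0 for 42 of 45 (93.3%, beside 5.68% of all genes). Its median was 0.96 against 0.011 over all genes tested, and all 45 estimates lay above 0. In DMSO the list stood at the same level in the lines (median log2 difference of NF1KO against CTRL 0.02), and in BYL719 NF1KO stood higher by a median of 0.99. The remaining 3 were RPA2 (0.35 ± 0.11), the polymerase POLE (0.76 ± 0.25) and the checkpoint adaptor CLSPN (1.07 ± 0.40), of which POLE and CLSPN had by far their highest level of each CTRL group in the number-1 libraries. Without both CTRL number-1 libraries all 45 were called.

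The enzymes that make deoxynucleotides moved with the replication proteins. RRM1, the large subunit of ribonucleotide reductase, measured 142, 150.2 and 139 CPM in CTRL DMSO, 68.3, 65.4 and 63.0 CPM in CTRL BYL719, 137 and 134 CPM in NF1KO DMSO and 124, 121 and 126 CPM in NF1KO BYL719. The NF1KO BYL719 libraries lay a little below the untreated ones, and the CTRL BYL719 libraries at less than 70 CPM were the lowest. The difference was 1.00 ± 0.087 (adjusted p = 3.48e-05) for RRM1, 1.07 ± 0.093 (adjusted p = 3.48e-05) for the dUTPase DUT and 1.198 ± 0.12 (adjusted p = 7.05e-05) for GINS1, a helicase cofactor. Thymidylate synthase TYMS had a difference of 1.21 ± 0.12, and its log2 change in NF1KO was 0.019 ± 0.089. PCLAF, a PCNA-binding factor that was not in the list, had a difference of 1.58 ± 0.12 (adjusted p = 2.21e-05). It measured 45.5, 40.3 and 38.2 CPM in CTRL BYL719 and 120.2, 106 and 119 CPM in NF1KO BYL719.

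Genes of mitosis, the spindle and the kinetochore fell in CTRL and fell less, or were not called, in NF1KO. All 50 fell in CTRL (median -1.50) and 17 of 50 in NF1KO (median -0.29), beside 21.8% and 8.47% of all genes. The difference was called above 0 for 46 of 50 (92.0%, beside 5.68% of all genes), with a median of 1.25, and all 50 estimates lay above 0. NF1KO stood lower than CTRL by a median of -0.14 in DMSO and higher by 1.07 in BYL719. The remaining 4 were MKI67, CENPE, CENPF and ASPM, with differences of 1.21 ± 0.65, 1.55 ± 0.75, 1.19 ± 0.57 and 0.75 ± 0.45. Their levels spread widely: MKI67, the proliferation antigen Ki-67, measured 547, 207 and 234 CPM in CTRL DMSO and 209, 73.2 and 67.4 CPM in CTRL BYL719. In each CTRL group the number-1 library was the high one, and without both number-1 libraries all 50 genes were called for the difference. The fall of these 4 in CTRL was itself not called without CTRL DMSO replicate 1 or CTRL BYL719 replicate 2 or 3.

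Regulators of mitotic entry and exit were among the called members. CDK1, the kinase that starts mitosis, changed by -1.41 ± 0.081 in CTRL and -0.041 ± 0.088 in NF1KO, and its activating phosphatase CDC25C by -1.50 ± 0.08 and 0.016 ± 0.086. CDC20, which activates the anaphase-promoting complex, changed by -1.85 ± 0.078 and -0.69 ± 0.083 (adjusted p = 0.000319), and the spindle kinase AURKA by -1.62 ± 0.076 and -0.42 ± 0.082 (adjusted p = 0.0049), the latter not called without NF1KO DMSO replicate 3. The differences were 1.37 ± 0.12, 1.52 ± 0.12, 1.17 ± 0.11 and 1.199 ± 0.11, each called, and these 4 were not tested against each other. NEK2, a centrosome kinase, measured 59.7, 57.3 and 52.1 CPM in CTRL BYL719 and 134, 134 and 145 CPM in NF1KO BYL719, with a difference of 1.40 ± 0.10 (adjusted p = 2.21e-05). The kinesin KIF15 was not a member of this list. It stood at 59.7, 36.0 and 36.7 CPM in CTRL DMSO and 20.9, 10.1 and 9.3 CPM in CTRL BYL719, with the number-1 libraries highest in both groups. In NF1KO BYL719 it stood at 29.98, 31.1 and 29.4 CPM. Its difference was 1.58 ± 0.41 (adjusted p = 0.0303), and leaving out the CTRL number-1 libraries gave 1.77. The call did not hold for KIF15 without CTRL BYL719 replicate 2 or 3, NF1KO DMSO replicate 2 or 3 or NF1KO BYL719 replicate 1 or 2 or 3.

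Promoters of the replication and mitosis lists differed in the elements they hold. E2F letters were common in the replication list and CHR letters in the mitosis list, as counted below. RRM1 and PLK1 of these lists, and KIF15, which is in neither, are shown as examples that hold such matches. CPA4 is shown as a gene of the opposite pattern. Each was picked for its number of matches among the named genes of its list or class. RRM1 is 1 of only 2 among 38 replication promoters that hold CHR letters. Sequences are RefSeq's on GRCh38.p14, 250 bases before to 30 bases after the start, 5′ to 3′ on the plus strand, which is the gene's own strand in all 4. Capitals mark matches, on either strand, to the letters TTGGCGC or TTCCCGC for E2F sites, to the letters TTTGAA or TTCGAA for the CHR, to the CCAAT box, and to TGAGTCA for AP-1 sites, whose other strand reads as TGACTCA.
RRM1, chr11:4094435-4094714: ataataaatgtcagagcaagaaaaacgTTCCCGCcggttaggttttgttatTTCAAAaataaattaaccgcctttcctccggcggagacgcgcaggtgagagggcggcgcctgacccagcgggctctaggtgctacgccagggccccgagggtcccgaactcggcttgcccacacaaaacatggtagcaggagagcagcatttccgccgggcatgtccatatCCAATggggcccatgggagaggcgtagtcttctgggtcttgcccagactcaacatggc
PLK1, chr16:23678639-23678918: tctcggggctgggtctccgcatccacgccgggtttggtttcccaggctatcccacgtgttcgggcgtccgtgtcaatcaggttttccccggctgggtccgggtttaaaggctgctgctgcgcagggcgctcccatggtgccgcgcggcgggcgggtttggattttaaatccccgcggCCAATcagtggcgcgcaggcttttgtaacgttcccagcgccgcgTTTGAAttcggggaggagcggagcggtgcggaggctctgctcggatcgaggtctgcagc
KIF15, chr3:44761544-44761823: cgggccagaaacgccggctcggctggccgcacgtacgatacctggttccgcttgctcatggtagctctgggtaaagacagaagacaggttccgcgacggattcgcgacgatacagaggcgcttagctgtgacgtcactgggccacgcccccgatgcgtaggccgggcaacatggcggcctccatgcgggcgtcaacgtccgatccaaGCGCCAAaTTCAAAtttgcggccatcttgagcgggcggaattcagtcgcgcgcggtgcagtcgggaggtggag
CPA4, chr7:130292911-130293190: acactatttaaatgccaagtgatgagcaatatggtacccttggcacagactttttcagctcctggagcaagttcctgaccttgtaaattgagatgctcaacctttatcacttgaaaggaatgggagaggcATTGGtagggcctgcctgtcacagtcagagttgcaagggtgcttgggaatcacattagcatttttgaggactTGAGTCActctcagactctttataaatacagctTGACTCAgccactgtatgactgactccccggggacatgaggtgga
In RRM1 the E2F letters begin 223 bases before the start, the CHR letters 199 bases before it and CCAAT 28 bases before it. In PLK1 CCAAT begins 73 bases and CHR 29 bases before the start, in KIF15 the E2F letters begin 43 bases and CHR 35 bases before it, and in CPA4 the 2 AP-1 matches begin 48 and 15 bases before it.

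Over 300-base windows (250 before and 50 after the start), E2F letters were found in 25 of the 38 replication genes with a RefSeq promoter (65.8%), in 8 of 44 mitotic genes (18.2%) and in 14.1% of the 12380 tested genes with a promoter. CHR letters were found in 33 of the 44 mitotic genes (75.0%), 2 of the 38 replication genes (5.26%) and 11.3% of tested genes. CCAAT, which is short and common, was found in 77.3%, 55.3% and 37.1%. CHR and CCAAT stood together in 27 mitotic promoters (61.4%) and in 4.95% of all. FOXO letters (GTAAACA) were found in 0 of the 38 replication and 1 of the 44 mitotic promoters, against 2.27% of tested genes, and AP-1 letters in 0 of either list against 3.09%. Of the 8 named genes with the largest differences below 0 among those raised in CTRL, 5 had a promoter. AP-1 letters stood in 1 of these 5, that of CPA4. Among the 8 such genes lowered in NF1KO, 5 had a promoter and 0 held AP-1 letters. The MCM2 window holds none of these letters. A match is a stretch of letters and not a measured binding site.

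Repair genes of the recombination and Fanconi pathways, which are transcribed with S phase, showed the same split. Of 29, 27 fell in CTRL (median -1.198) and 3 in NF1KO (median -0.13), beside 21.8% and 8.47% of all genes. The difference was called above 0 for 20 (69.0%, beside 5.68% of all genes), with a median of 1.06. RMI2, a part of the BLM helicase complex, had a difference of 1.08 ± 0.093 (adjusted p = 3.48e-05). BARD1, the partner of BRCA1, and the checkpoint kinase CHEK1 had differences of 0.96 ± 0.096 and 0.96 ± 0.10. BRCA1 and BRCA2 had estimates as large (1.23 ± 0.38 and 1.19 ± 0.53) that were not called, and BRCA1 measured 117, 69.7 and 68.6 CPM in CTRL DMSO replicates 1, 2 and 3. Without both number-1 libraries 25 of the 29 were called.

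Regulators of the G1/S switch mostly had differences above 0 (27 of 30 estimates). The difference was called above 0 for 13 of 30 and below 0 for 1 (46.7% in all, beside 9.39% of all genes), with a median of 0.38. E2F1 (1.01 ± 0.14), E2F8 (1.31 ± 0.18), MYBL2, the MYB partner of the mitotic program (1.052 ± 0.10), and CDK2 (0.78 ± 0.082) were among those above 0. CDKN2B, an inhibitor of CDK4 and CDK6, was the one below 0: it rose in CTRL from 8.95, 8.33 and 7.93 CPM to 27.0, 21.4 and 19.3 CPM and stood at 5.89 and 5.63 CPM in NF1KO DMSO and 6.43, 5.71 and 5.56 CPM in NF1KO BYL719, a difference of -1.39 ± 0.18 (adjusted p = 0.000504). Cyclin D1 (CCND1), the G1 cyclin, had a difference of 0.37 ± 0.13 (adjusted p = 0.102). The CDK inhibitors CDKN1A and CDKN1B had 0.22 ± 0.17 and 0.12 ± 0.12, CDK4 0.031 ± 0.13 and RB1 0.21 ± 0.13, and none of these 5 was called. In NF1KO DMSO CDKN1A already stood at 45.5 and 49.1 CPM, against 15.5, 20.5 and 20.7 CPM in CTRL DMSO.

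Among replication-dependent histone genes differences were called above 0 for 1 and below 0 for 2 of 29 (median 0.11), a share of 10.3% beside 9.39% of all genes. Without both CTRL number-1 libraries 3 were above 0 and 5 below, and with a replicate block within genotype 5 and 7. Their transcripts largely lack poly(A) tails, and the libraries were made from poly(A) RNA. H4C8 rose from 1.31, 1.37 and 1.43 to 4.58, 6.08 and 6.59 CPM in CTRL and measured 2.22 and 2.63 CPM in NF1KO DMSO and 3.88, 3.72 and 3.4 CPM in NF1KO BYL719, a difference of -1.47 ± 0.22 (adjusted p = 0.0013).

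**Figure D3:**
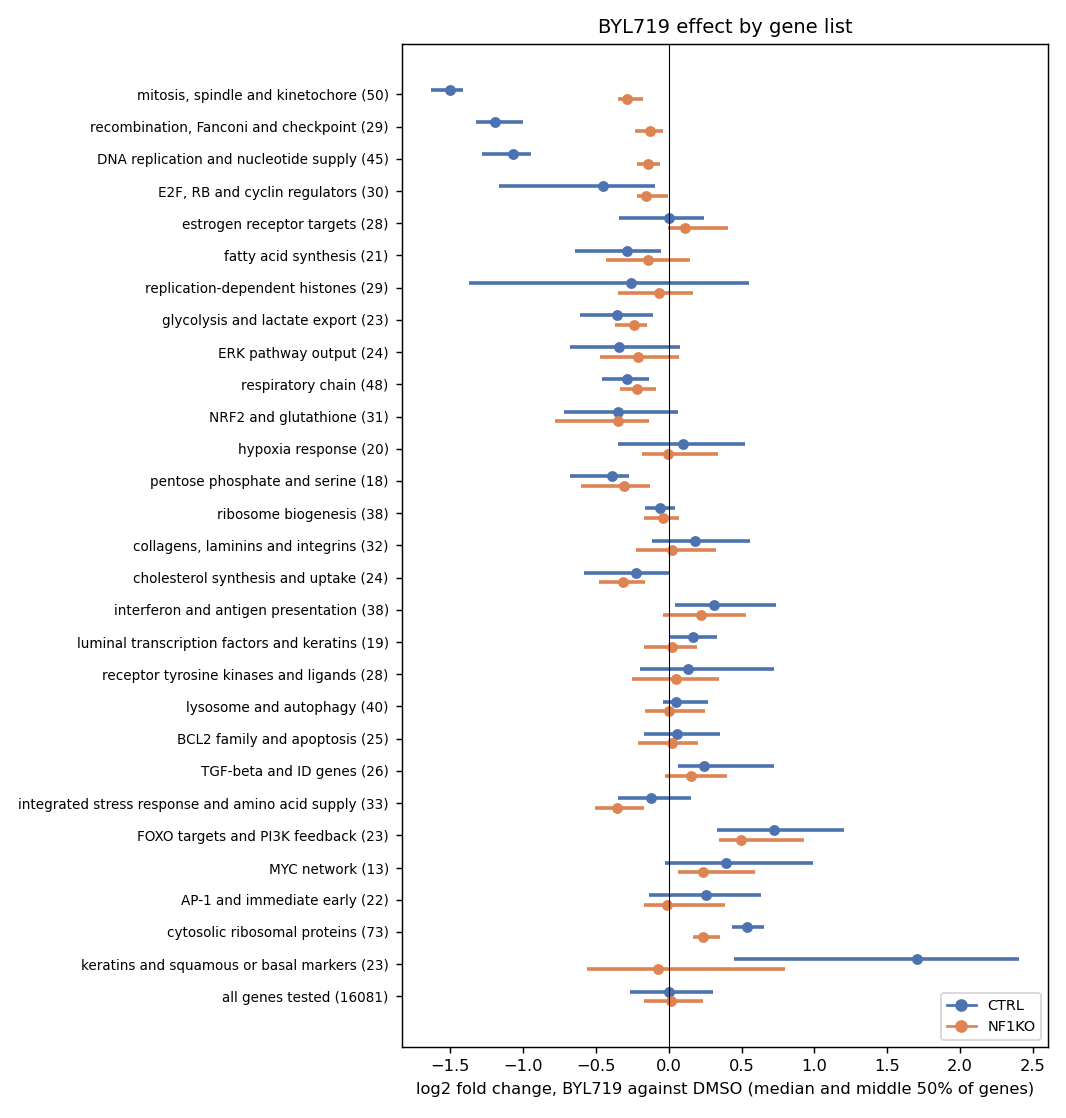
Median log2 fold change of BYL719 against DMSO (points) and the middle 50% of genes (bars) of each list in CTRL (blue) and NF1KO (orange), with the number of genes tested in parentheses and all 16081 genes at the bottom. The mitosis, recombination and replication lists sit between -1.50 and -1.07 in CTRL and between -0.29 and -0.13 in NF1KO, and the keratin and squamous list sits at 1.71 and -0.071.

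Outside the cell cycle, the 8 largest differences above 0 of genes that fell in CTRL, counting genes whose mean log2 CPM reached 2, included ACOX2 and EGR3, which stood higher in untreated NF1KO than in any CTRL library. ACOX2, a peroxisomal oxidase of bile acid synthesis, fell in both lines, from 7.75, 7.51 and 7.81 to 1.51, 1.54 and 1.62 CPM in CTRL and from 44.7 and 49.4 to 27.3, 30.5 and 33.7 CPM in NF1KO. Its log2 change was -2.30 ± 0.10 and -0.62 ± 0.089, a difference of 1.68 ± 0.14 (adjusted p = 3.01e-05). EGR3, an immediate early factor downstream of ERK, stood at 1.99, 2.86 and 4.23 CPM in CTRL DMSO and 0.558, 0.949 and 1.17 CPM in CTRL BYL719, and at 26.05 and 28.6 CPM in NF1KO DMSO and 23.6, 33.4 and 30.9 CPM in NF1KO BYL719. The CTRL values are low and the NF1KO values overlap between treatments. The difference was 1.86 ± 0.39 (adjusted p = 0.00988) and lost its call without NF1KO DMSO replicate 2. NEURL1B, a ubiquitin ligase that acts on Notch ligands, fell from 61.8, 63.7 and 70.3 to 30.8, 25.4 and 25.9 CPM in CTRL and measured 35.0 and 36.0 CPM in NF1KO DMSO and 39.4, 43.4 and 42.2 CPM in NF1KO BYL719, a difference of 1.49 ± 0.13 (adjusted p = 3.48e-05).

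Genes that BYL719 switched up in CTRL and not, or less, in NF1KO had differences below 0. Among genes raised in CTRL whose mean log2 CPM reached 2, the largest after CPA4 was that of HSD17B1, which reduces estrone to estradiol: it rose from 7.76, 9.15 and 8.78 to 44.6, 50.8 and 48.9 CPM in CTRL and measured 12.8 and 11.8 CPM in NF1KO DMSO and 15.8, 13.04 and 15.3 CPM in NF1KO BYL719, a difference of -2.23 ± 0.14 (adjusted p = 1.24e-05). SPNS2, which exports sphingosine 1-phosphate, rose to 40.8, 42.4 and 45.4 CPM in CTRL and measured 6.1, 4.65 and 5.38 CPM in NF1KO, a difference of -2.08 ± 0.16 (adjusted p = 2.61e-05). L1CAM, a neural adhesion molecule, differed from these in its starting level. It rose from 21.8, 19.7 and 20.05 to 93.9, 72.4 and 71.7 CPM in CTRL, but stood at 128 and 125 CPM in untreated NF1KO, above any CTRL library, and at 107, 122 and 124 CPM after BYL719, a difference of -2.05 ± 0.15 (adjusted p = 2.21e-05). The others of these 8 were HS3ST3B1 (-1.84 ± 0.22), a heparan sulfate sulfotransferase, the netrin NTN4 (-1.67 ± 0.25), the inhibitor of differentiation ID3 (-1.64 ± 0.20) and the keratin KRT80 (-1.64 ± 0.12), with adjusted p of 0.00117 or less. Genes that share the positions of HSD17B1 and SPNS2 held 114% and 406.5% of the counts of each.

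Many keratins and other markers of squamous or basal epithelium rose in CTRL. Of 23, 17 rose and 1 fell in CTRL (median 1.71), while in NF1KO 7 rose and 4 fell (median -0.071). Of all genes, 22.6% rose and 21.8% fell in CTRL, and 10.3% rose and 8.47% fell in NF1KO. The difference was called below 0 for 12, with a median of -1.01, and none of the others was called, a share of 52.2% beside 9.39% of all genes (9 to 15 over the alternatives, with 9 without NF1KO DMSO replicate 2). KRT80 rose from 43.6, 49.6 and 52.8 CPM to 183, 164 and 174 CPM in CTRL and measured 50.2 and 50.6 CPM in NF1KO DMSO and 53.0, 59.2 and 61.3 CPM in NF1KO BYL719. The CTRL BYL719 libraries were more than 2-fold above every other library. KRT15, a basal keratin, changed by 2.11 ± 0.11 in CTRL and 0.72 ± 0.13 in NF1KO, a difference of -1.39 ± 0.17 (adjusted p = 0.000328). KRT16 and KRT17, keratins of activated squamous epithelium, rose in CTRL from a level under 1 CPM (3.01 ± 0.28 and 2.55 ± 0.24) and measured -0.56 ± 0.40 and -0.75 ± 0.40 in NF1KO, with differences of -3.56 ± 0.50 and -3.30 ± 0.48.

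The list was not uniform. KRT23 rose by 2.16 ± 0.096 in CTRL and 2.17 ± 0.11 in NF1KO, and the protease KLK10 by 2.26 ± 0.25 and 2.35 ± 0.31. Their differences were 0.001 ± 0.15 and 0.085 ± 0.38, neither called. KRT4, the largest rise of the list in CTRL (4.05 ± 0.18), also rose in NF1KO (3.04 ± 0.28), to 2.88, 2.15 and 2.02 CPM from 0.258 and 0.308 CPM, with a difference of -1.01 ± 0.38 (adjusted p = 0.143). KRT4, KRT23 and KLK10 were named after their values were seen.

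KLK5, a serine protease of cornifying epithelium, moved in opposite directions in the lines towards a similar level. It stood at 0.275, 0.419 and 0.65 CPM in CTRL DMSO, 3.15, 3.44 and 4.38 CPM in CTRL BYL719, 5.41 and 5.36 CPM in NF1KO DMSO and 2.67, 3.32 and 3.73 CPM in NF1KO BYL719. The treated libraries of the lines overlap, and the untreated ones are far apart. The log2 change was 3.03 ± 0.25 in CTRL and -0.73 ± 0.22 (adjusted p = 0.0352) in NF1KO, the latter lost without NF1KO DMSO replicate 2 or 3 or NF1KO BYL719 replicate 1 or 2, and the difference was -3.77 ± 0.33 (adjusted p = 3.61e-05). The hair keratin KRT81 also moved in opposite directions (difference -2.90 ± 0.31), at levels under 4 CPM and with an overlapping gene, KRT86, that held 76.3% of its counts. Its treated libraries did not overlap, at 2.05, 2.81 and 3.18 CPM in CTRL and 0.891, 1.08 and 1.16 CPM in NF1KO.

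Some genes of TGF-beta signalling, the extracellular matrix and AP-1 rose in CTRL and less in NF1KO. In the TGF-beta and ID list 6 of 26 differences were called below 0 (23.1%, beside 3.71% of all genes, with a median of -0.13). INHBB, a subunit of activin B, rose from 135, 136 and 138 to 262, 269 and 273 CPM in CTRL and measured 62.0 and 63.3 CPM in NF1KO DMSO and 63.9, 68.0 and 61.8 CPM in NF1KO BYL719, a difference of -0.93 ± 0.084 (adjusted p = 4.47e-05). CCN2, a matricellular target of YAP and TGF-beta, rose from 0.395, 0.292 and 0.223 to 6.68, 6.49 and 6.2 CPM in CTRL and measured 0.166 and 0.217 CPM in NF1KO DMSO and 0.542, 0.474 and 0.527 CPM in NF1KO BYL719, a difference of -2.98 ± 0.37 (adjusted p = 0.000349). TGFB2, a TGF-beta ligand, rose by 3.26 ± 0.086 in CTRL and 2.83 ± 0.17 in NF1KO and was not called (-0.43 ± 0.23). Among collagens, laminins and integrins 6 of 32 were called below 0 and 1 above 0 (21.9% in all, beside 9.39%), the latter the integrin ITGA6 (0.46 ± 0.11). TIMP3, an inhibitor of matrix proteases, rose strongly in both lines (3.51 ± 0.099 and 2.46 ± 0.11) with a difference of -1.050 ± 0.14 (adjusted p = 0.000467). The fibrillar collagen COL5A1 rose to 40.2, 31.1 and 30.6 CPM in CTRL and measured 1.54, 2.7 and 3.18 CPM in NF1KO (difference -1.57 ± 0.32). The call did not hold for COL5A1 without NF1KO DMSO replicate 3 and for ITGA6 without CTRL DMSO replicate 2, CTRL BYL719 replicate 3, NF1KO DMSO replicate 2 or 3 or NF1KO BYL719 replicate 2. Without NF1KO DMSO replicate 3 the calls below 0 numbered 3 in the TGF-beta list and 2 in the matrix list.

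In the AP-1 and immediate early list 6 of 22 differences were called below 0 and 3 above 0 (40.9% in all, beside 9.39% of all genes, with a median of -0.23), and without NF1KO DMSO replicate 2 none was called above 0. JUN, the AP-1 subunit, rose from 15.2, 15.1 and 17.4 to 43.0, 41.3 and 43.2 CPM in CTRL and from 13.6 and 13.8 to 21.5, 20.1 and 21.4 CPM in NF1KO, a difference of -0.81 ± 0.11 (adjusted p = 0.000538). FOSL2, another AP-1 subunit, rose by 1.16 ± 0.07 and 0.55 ± 0.081 (difference -0.61 ± 0.11). The epithelial factor KLF4 rose in CTRL to 13.1, 11.9 and 11.3 CPM and measured 5.5, 7.12 and 6.31 CPM in NF1KO, a difference of -1.21 ± 0.16 (adjusted p = 0.000593).

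Targets of ERK, which NF1 loss is known to raise, stood higher in NF1KO in both treatments as a list (median log2 difference 0.86 in DMSO and 0.98 in BYL719). Of 24 differences of effects, 5 were called above 0 and 2 below 0 (29.2% in all, beside 9.39% of all genes), with a median of 0.08. ETV1, an ETS factor, measured 1.03, 0.82 and 0.78 CPM in CTRL DMSO, 0.135, 0.112 and 0.0863 CPM in CTRL BYL719, 3.01 and 3.57 CPM in NF1KO DMSO and 2.45, 2.83 and 2.33 CPM in NF1KO BYL719, a difference of 2.58 ± 0.31 (adjusted p = 0.000284). ETV4 was at 0 in all 3 CTRL BYL719 libraries, at 0.189, 0.0911 and 0.0928 CPM in CTRL DMSO, at 11.3 and 10.4 CPM in NF1KO DMSO and at 4.87, 8.12 and 7.96 CPM in NF1KO BYL719, and no fold is given for it. Its difference was called above 0, and the call was lost in 11 of 21 alternatives. SPRED1, a RAS inhibitor, fell from 8.61, 9.59 and 9.22 to 5.18, 5.15 and 5.45 CPM in CTRL and measured 20.05 and 15.9 CPM in NF1KO DMSO and 20.4, 18.6 and 14.4 CPM in NF1KO BYL719, a difference of 0.78 ± 0.19 (adjusted p = 0.0235). The phosphatase DUSP6 was at 23.3 and 22.1 CPM in NF1KO DMSO and 20.7, 23.8 and 19.96 CPM in NF1KO BYL719, and at 0.656 to 1.32 CPM in CTRL (difference 0.083 ± 0.28, not called). The call did not hold for SPRED1 without CTRL DMSO replicate 2, CTRL BYL719 replicate 2, NF1KO DMSO replicate 3 or NF1KO BYL719 replicate 1 or 2. Without CTRL DMSO replicate 2 the list had 2 calls above 0.

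Direct targets of FOXO and the feedback receptors and adaptors of PI3K rose in both lines. Of 23, 18 rose in CTRL (median 0.72) and 18 in NF1KO (median 0.49), beside 22.6% and 10.3% of all genes. The difference was called below 0 for 5 and above 0 for 1 (26.1% in all, beside 9.39% of all genes, with a median of -0.20), and below 0 for 3 without NF1KO DMSO replicate 3. CITED2, a CBP and p300 binding co-regulator, rose from 49.0, 51.7 and 54.2 to 192, 213 and 198 CPM in CTRL and from 30.01 and 27.9 to 105, 90.2 and 76.0 CPM in NF1KO. The treated libraries lay above the untreated ones in each line by a wide margin. Log2 changes were 1.96 ± 0.10 and 1.64 ± 0.12, and the difference -0.32 ± 0.15 (adjusted p = 0.257). The ubiquitin ligase FBXO32 (1.96 ± 0.11 and 1.69 ± 0.13), the adaptor IRS2 (1.13 ± 0.10 and 1.25 ± 0.12) and the insulin receptor INSR (0.95 ± 0.086 and 0.91 ± 0.097) rose in both lines as well, with differences of -0.27 ± 0.17, 0.12 ± 0.15 and -0.038 ± 0.13 that were not called.

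The members with a weaker rise in NF1KO included receptors and autophagy genes. ERBB2, which encodes HER2, rose from 238, 267 and 275 to 549, 640.2 and 642 CPM in CTRL and from 149 and 147 to 175, 206 and 195 CPM in NF1KO. NF1KO BYL719 stayed below untreated CTRL. Log2 changes were 1.23 ± 0.086 and 0.38 ± 0.096 (adjusted p = 0.0186), the latter lost without either NF1KO DMSO library or NF1KO BYL719 replicate 2, and the difference was -0.85 ± 0.13 (adjusted p = 0.00115). PINK1, a kinase that starts mitophagy (-0.83 ± 0.11), GABARAPL1, an ATG8 protein of autophagosomes (-0.77 ± 0.12), and the adaptor IRS1 (-0.52 ± 0.10) were called too, IRS1 not without NF1KO DMSO replicate 3. PDK4, the kinase that inhibits pyruvate dehydrogenase, was the one above 0 and was named after its values were seen: it measured 1.25, 1.95 and 2.1 CPM in CTRL DMSO, 1.29, 1.75 and 1.71 CPM in CTRL BYL719, 2.25 and 1.97 CPM in NF1KO DMSO and 4.61, 5.49 and 4.64 CPM in NF1KO BYL719, with a difference of 1.38 ± 0.29 (adjusted p = 0.0102) that was lost without NF1KO DMSO replicate 3.

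In the receptor tyrosine kinase list, 4 of 28 differences were called below 0 and 2 above 0 (21.4% in all, beside 9.39% of all genes, with a median of -0.10). Besides ERBB2, FGFR4, a fibroblast growth factor receptor, was below 0: it measured 18.5, 21.05 and 25.3 CPM in CTRL DMSO and 24.6, 27.4 and 35.7 CPM in CTRL BYL719 and 21.5 and 22.8 CPM in NF1KO DMSO and 13.1, 12.97 and 14.6 CPM in NF1KO BYL719, a difference of -1.14 ± 0.21 (adjusted p = 0.00419). The treatment groups overlap in CTRL and do not in NF1KO. RET, a receptor of the GDNF family, was above 0 (0.56 ± 0.12), a call lost without NF1KO DMSO replicate 2. Calls below 0 numbered 2 without NF1KO DMSO replicate 3.

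Some genes of the stress response and of amino acid supply had differences below 0. Of 33, 18 fell and 2 rose in NF1KO (median -0.35), against 12 and 7 in CTRL (median -0.12). Of all genes, 8.47% fell and 10.3% rose in NF1KO, against 21.8% and 22.6% in CTRL. The difference was called below 0 for 11, with a median of -0.16, and for 4 without NF1KO DMSO replicate 2. That is 33.3% of the list, beside 3.71% of all genes below 0. CHAC1, which degrades glutathione and is induced by ATF4, measured 1.58, 2.02 and 1.21 CPM in CTRL DMSO and 2.00, 2.31 and 1.73 CPM in CTRL BYL719 and 7.66 and 7.83 CPM in NF1KO DMSO and 1.96, 1.61 and 2.25 CPM in NF1KO BYL719. Untreated NF1KO stood apart from all other libraries, and treatment brought it into the range of CTRL. Its log2 change was 0.32 ± 0.19 in CTRL and -2.00 ± 0.20 (adjusted p = 9.37e-05) in NF1KO, a difference of -2.32 ± 0.28 (adjusted p = 0.000257).

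The stress genes differed in which line moved. NUPR1, a stress-induced chromatin protein, rose in CTRL from 55.1, 54.0 and 53.5 to 89.5, 96.1 and 89.8 CPM and measured 41.5 and 40.4 CPM in NF1KO DMSO and 37.4, 33.5 and 38.1 CPM in NF1KO BYL719, a difference of -0.93 ± 0.096 (adjusted p = 9.62e-05). The glycine transporter SLC6A9 (-1.16 ± 0.16) and the factor ATF3 (-0.68 ± 0.11) also rose in CTRL. GDF15, a secreted stress cytokine that belongs to the genes with opposite changes, measured 0.636, 0.838 and 0.928 CPM in CTRL DMSO and 1.61, 1.64 and 1.76 CPM in CTRL BYL719 and 4.02 and 4.09 CPM in NF1KO DMSO and 1.8, 1.71 and 1.87 CPM in NF1KO BYL719, a difference of -2.24 ± 0.22 (adjusted p = 7.28e-05). SLC7A5, the leucine transporter, fell in both lines by similar amounts (-0.80 ± 0.061 and -0.93 ± 0.067), with a difference of -0.13 ± 0.091 (adjusted p = 0.505).

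The medians of the metabolic lists lay below 0 in both lines. Between 12.5% (cholesterol synthesis) and 23.8% (fatty acid synthesis) of their members were called for the difference, beside 9.39% of all genes. In the NRF2 and glutathione list the difference was called above 0 for 1 and below 0 for 4 of 31, with medians of -0.35 in CTRL and -0.35 in NF1KO. The cystine importer SLC7A11 changed by -1.89 ± 0.30 in CTRL and -2.08 ± 0.31 in NF1KO and the quinone reductase NQO1 by -0.84 ± 0.093 and -0.83 ± 0.10, with differences of -0.19 ± 0.43 and 0.012 ± 0.14 that were not called. TXNRD1, thioredoxin reductase, was one of the exceptions: it rose in CTRL from 267, 266 and 241 to 412, 459 and 379.8 CPM and measured 199 and 195 CPM in NF1KO DMSO and 187, 169 and 171 CPM in NF1KO BYL719, a difference of -0.86 ± 0.12 (adjusted p = 0.000624). Among fatty acid synthesis genes 4 of 21 were above 0 and 1 below 0. The elongase ELOVL6 fell from 30.5, 29.8 and 29.8 to 18.2, 17.4 and 16.5 CPM in CTRL and measured 34.0 and 33.7 CPM in NF1KO DMSO and 34.3, 36.4 and 34.1 CPM in NF1KO BYL719, a difference of 0.83 ± 0.094 (adjusted p = 0.000166), while the desaturase SCD changed by -0.95 ± 0.085 and -0.65 ± 0.093 (difference 0.31 ± 0.13, not called). In glycolysis 3 of 23 were above 0 and 2 below 0, with lactate dehydrogenase LDHA at 0.52 ± 0.099 (adjusted p = 0.00562). In the pentose phosphate and serine list 3 of 18 were above 0, and in cholesterol synthesis 2 of 24 above 0 and 1 below 0. These small counts depended on single libraries: the NRF2 list had 1 call below 0 without CTRL DMSO replicate 3, the fatty acid list 2 above 0 without the same library, and glycolysis 1 above 0 without NF1KO DMSO replicate 3 and 6 without both CTRL number-1 libraries.

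For the 48 respiratory chain subunits edgeR called 0 differences, 3 had an unadjusted p under 0.05, limma-voom called 0 and DESeq2 called 2, both above 0. The list had a median log2 change of -0.29 in CTRL and -0.22 in NF1KO, with a median difference of 0.078. The 73 cytosolic ribosomal protein genes gave a different picture. They rose in CTRL (62 of 73, median 0.54) and 9 of 73 rose in NF1KO (median 0.24), beside 22.6% and 10.3% of all genes. All 73 estimates of the difference lay below 0, with a median of -0.28. Again edgeR called 0 of them, with 9 at an unadjusted p under 0.05, limma-voom called 0 and DESeq2 1. Without both CTRL number-1 libraries 19 were called, and with a replicate block within genotype 39, all below 0. RPL3, an example, measured 916, 1134 and 1091 CPM in CTRL DMSO and 1635, 2222 and 2145 CPM in CTRL BYL719, with the number-1 library lowest in each group, and 1110.4 and 1071 CPM in NF1KO DMSO and 1405, 1446 and 1563 CPM in NF1KO BYL719 (difference -0.50 ± 0.17, adjusted p = 0.0988). Ribosomal protein genes have many processed pseudogenes that share sequence with them, and how the counting treated such reads is not given in the sources used here.

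Estrogen receptor targets had called differences above 0 in 8 of 28 (28.6%, beside 5.68% of all genes), with a median of 0.22, and no call below 0 in this fit (2 with an unadjusted p under 0.05 and an estimate below 0, and between 0 and 2 called below 0 over the alternatives). ESR1, the receptor itself, measured 349.9, 299 and 319 CPM in CTRL DMSO and 351, 307 and 339.8 CPM in CTRL BYL719 and 181 and 181 CPM in NF1KO DMSO and 269, 251 and 239 CPM in NF1KO BYL719. It rose in NF1KO towards the CTRL level, by 0.48 ± 0.088 (adjusted p = 0.00327), and changed by 0.045 ± 0.077 in CTRL, a difference of 0.44 ± 0.12 (adjusted p = 0.035). PGR, the progesterone receptor and a target of ESR1, rose in both lines (0.71 ± 0.11 and 0.99 ± 0.13), with a difference of 0.29 ± 0.16 that was not called. RAPGEFL1 (0.70 ± 0.13) and OLFM1 (0.45 ± 0.09) fell in CTRL, and the kinase SGK3 rose in NF1KO from 67.0 and 66.8 to 110.4, 104 and 100.4 CPM while CTRL measured 90.3, 82.7 and 83.3 and 84.3, 78.3 and 84.7 CPM, a difference of 0.70 ± 0.096 (adjusted p = 0.000608). SGK3 overlaps a readthrough gene that holds 101% of its counts. Among luminal transcription factors and keratins 2 of 19 were above 0 and 3 below 0 (26.3% in all, beside 9.39%). Those below 0 numbered 7 without both CTRL number-1 libraries, 8 with a replicate block within genotype and 1 without CTRL DMSO replicate 1. The difference was not called for ESR1 without CTRL DMSO replicate 1 or 3, CTRL BYL719 replicate 2 or 3, NF1KO DMSO replicate 2 or 3 or NF1KO BYL719 replicate 1 or 2, and its rise in NF1KO was not called without NF1KO DMSO replicate 3. Without NF1KO DMSO replicate 2 the estrogen receptor list had 4 calls above 0.

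Of other lists, hypoxia genes had 3 of 20 differences below 0 and 1 above 0 (20% in all, beside 9.39% of all genes). EPAS1, the HIF-2 alpha subunit, rose in CTRL from 206, 188 and 168 to 534, 537 and 492 CPM and measured 141 and 140.1 CPM in NF1KO DMSO and 179, 183 and 168 CPM in NF1KO BYL719, a difference of -1.14 ± 0.11 (adjusted p = 8.42e-05). In the MYC network MYC itself rose in both lines (1.14 ± 0.089 and 0.57 ± 0.10, difference -0.57 ± 0.13), its antagonist MXD1 rose more in CTRL (-0.86 ± 0.14), and MXD3, another MAX partner, fell in CTRL (1.34 ± 0.20). The MYC difference was not called without NF1KO DMSO replicate 2 or 3. In the lysosome list 3 of 40 were above 0 and 4 below 0 (17.5% in all, beside 9.39% of all genes), with alpha-galactosidase GLA at 0.74 ± 0.10. Without CTRL BYL719 replicate 2, 1 was called below 0. The interferon list had 1 call of 38, OAS3 (0.96 ± 0.16), ribosome biogenesis 2 of 38 and the BCL2 family 1 of 25, shares of 2.63%, 5.26% and 4.0% beside 9.39% of all genes.

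A small set of genes changed in opposite directions in the lines. Among 16081 genes, 24 rose in CTRL and fell in NF1KO and 23 fell in CTRL and rose in NF1KO. HAUS1, a subunit of the augmin complex that branches spindle microtubules, fell in CTRL from 15.7, 16.7 and 16.9 to 9.59, 10.3 and 9.87 CPM and rose in NF1KO from 24.7 and 24.7 to 49.9, 50.4 and 57.1 CPM. No group overlapped another. The log2 change was -0.73 ± 0.074 in CTRL and 1.09 ± 0.081 (adjusted p = 1.97e-05) in NF1KO, a difference of 1.81 ± 0.11 (adjusted p = 1.13e-05).

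GFRA1, a co-receptor for GDNF that works with RET, fell slightly in CTRL from 94.3, 97.7 and 108 to 79.3, 82.0 and 85.4 CPM and rose in NF1KO from 6.85 and 6.81 to 16.3, 14.8 and 14.9 CPM, where its level before treatment was far lower. The difference was 1.45 ± 0.11 (adjusted p = 2.36e-05). MAOA, a monoamine oxidase, measured 2.94, 3.72 and 3.88 CPM in CTRL DMSO and 2.66, 2.18 and 2.55 CPM in CTRL BYL719 and 18.8 and 19.6 CPM in NF1KO DMSO and 31.6, 36.3 and 36.8 CPM in NF1KO BYL719, a difference of 1.37 ± 0.17 (adjusted p = 0.000353), and PYGL, the liver glycogen phosphorylase, had a difference of 0.91 ± 0.098 (adjusted p = 0.00013). HAUS1, GFRA1, MAOA and PYGL, together with GDF15 and the desaturase FADS1, kept their calls in both lines in all alternatives run. The others of the 8 largest differences above 0 among genes raised in NF1KO whose mean log2 CPM reached 2 were those of GPC3, a glypican (1.28 ± 0.16 in NF1KO, -0.26 ± 0.14 in CTRL), the potassium channel subunit KCNE4 (0.94 ± 0.13 and -0.47 ± 0.18), the membrane transferrin family member MELTF (1.33 ± 0.13 and -0.037 ± 0.11), the lipid droplet protein PLIN5 (0.98 ± 0.25 and -0.23 ± 0.20) and PLPPR3 (0.74 ± 0.22 and -0.46 ± 0.19). Their differences lay between 1.204 and 1.54. The fall of KCNE4 in CTRL lost its call in 15 of 22 alternatives. The difference was not called for PLIN5 without CTRL DMSO replicate 1 or 2, CTRL BYL719 replicate 2 or 3, NF1KO DMSO replicate 2 or 3 or NF1KO BYL719 replicate 1 or 3 and with limma-voom; PLPPR3 without CTRL BYL719 replicate 2 or NF1KO DMSO replicate 2 or 3.

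**Figure D4:**
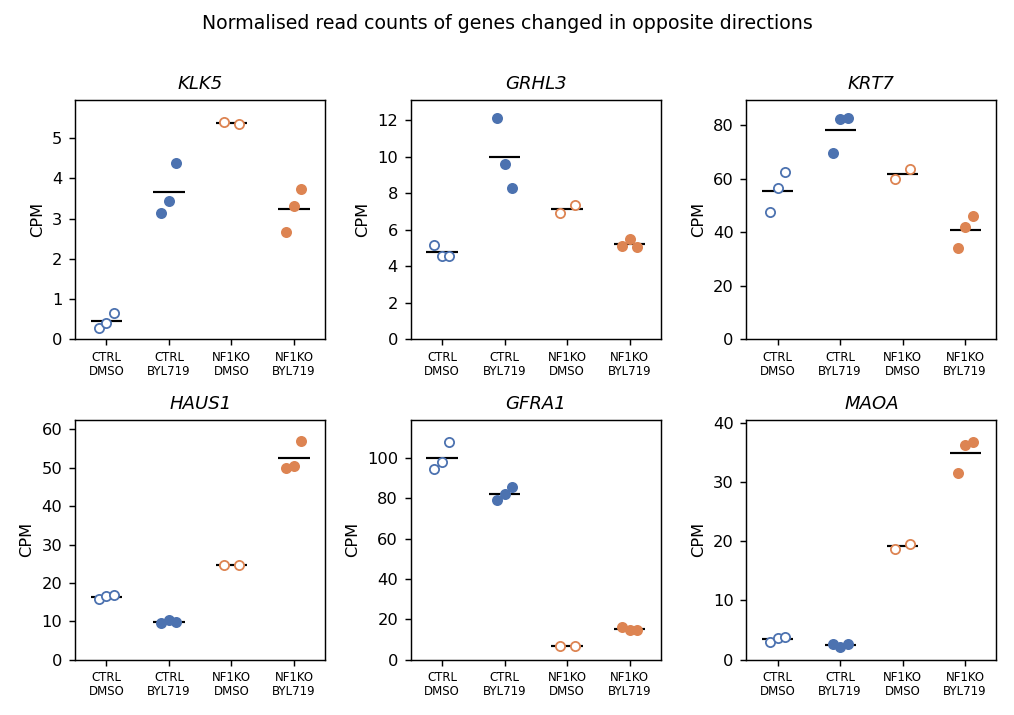
Normalised read counts (CPM, y axis from 0) of 3 genes raised in CTRL and lowered in NF1KO (KLK5, GRHL3, KRT7) and 3 with the reverse (HAUS1, GFRA1, MAOA) in each library; open points are DMSO, filled points BYL719, bars the group means. KLK5 converges from 0.275 to 0.650 CPM in CTRL and 5.36 to 5.41 CPM in NF1KO to overlapping treated levels, while HAUS1 moves apart.

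The genes that fell in NF1KO and rose in CTRL included several of epithelial differentiation. GRHL3, a transcription factor of epidermal differentiation, measured 5.15, 4.59 and 4.57 CPM in CTRL DMSO and 12.1, 9.62 and 8.3 CPM in CTRL BYL719 and 6.92 and 7.35 CPM in NF1KO DMSO and 5.14, 5.51 and 5.04 CPM in NF1KO BYL719, a difference of -1.52 ± 0.19 (adjusted p = 0.000396). The groups do not overlap in either line. ALOXE3, a lipoxygenase of the skin barrier (-1.29 ± 0.20), the focal adhesion protein ZYX (-1.12 ± 0.12), the simple epithelial keratin KRT7 (-1.10 ± 0.18), the TWEAK receptor TNFRSF12A (-0.94 ± 0.15) and the calcium-binding protein S100A16 (-0.93 ± 0.19) followed, and involucrin (IVL), a precursor of the cornified envelope, did so at levels under 7 CPM (-1.65 ± 0.24). The rise in CTRL lost its call in 9 of 22 alternatives for S100A16 and in 4 for IVL. SDSL, a serine dehydratase-like enzyme, was called in NF1KO (-0.67 ± 0.15) and for the difference (-0.90 ± 0.20) but not in CTRL (0.23 ± 0.13). Of the 19 named genes with opposite calls, 11 lost the NF1KO call without an NF1KO DMSO library, GRHL3, ALOXE3, ZYX, KRT7, TNFRSF12A and S100A16 among them. The difference itself lost its call for S100A16 without NF1KO DMSO replicate 3 and for SDSL without replicate 2 or 3.

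**Figure D5:**
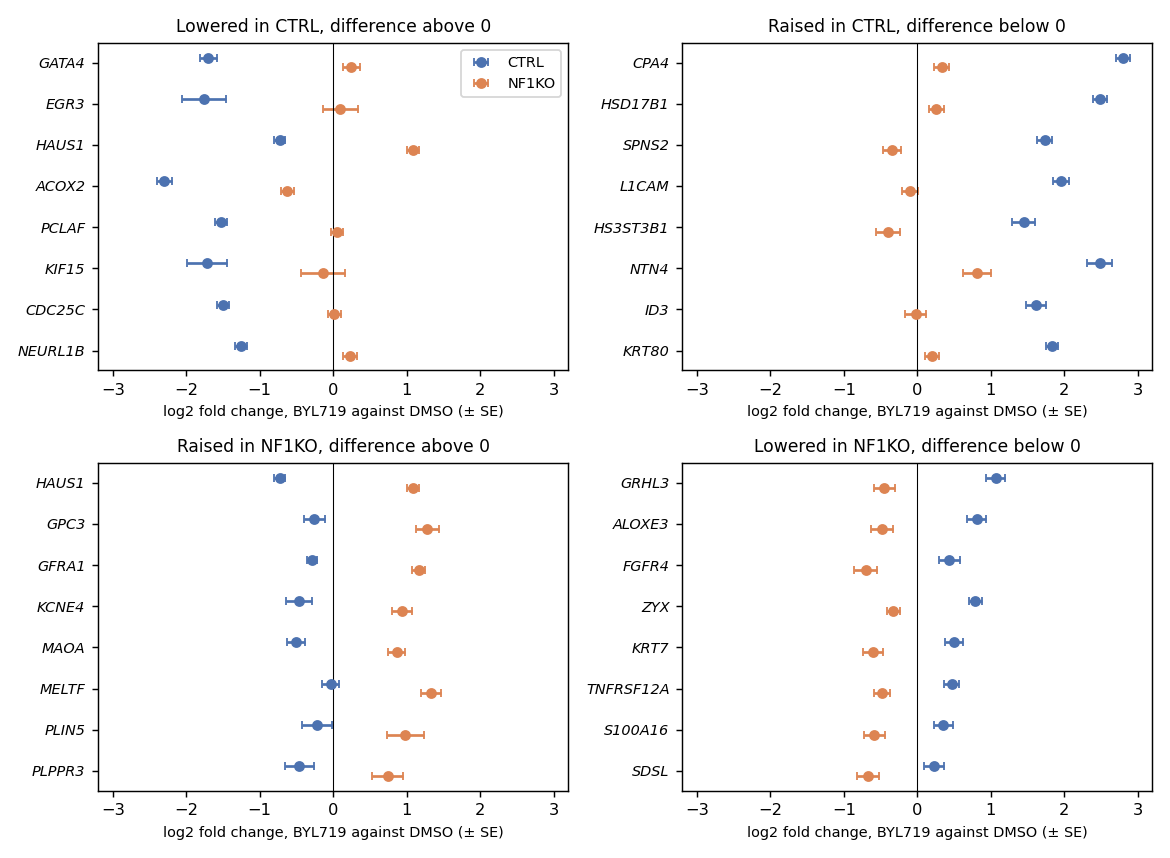
Log2 fold change of BYL719 against DMSO (points, with SE) in CTRL (blue) and NF1KO (orange) of the 8 genes with the largest called difference in each of 4 classes, by the line that changed and its direction. In the upper panels most NF1KO estimates lie near 0, such as CDC25C at 0.016 and ID3 at -0.024, and in the lower panels the lines lie on opposite sides of 0, with MELTF in CTRL (-0.037) nearest to it.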

How the data were processed

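Raw counts per Entrez gene were deposited by the authors for T47D libraries made with a stranded mRNA kit and single 76-base reads, per the labels. Reads were aligned to hg38, and STAR 2.5.2a, SAMtools 1.7, Picard 2.9.2 and edgeR were used, per the submitters' processing notes. The counting tool, annotation and strand setting are not given in the sources used here, so reads of overlapping genes cannot be assigned with certainty. Among the genes named, those whose position overlaps a gene with at least 20% of their counts include CDC25C, HSD17B1, SPNS2, GRHL3, KRT81, PINK1, FADS1, SGK3, GLA, MXD3, ETV4, CDK4, SLC6A9 and TGFB2. Positions came from RefSeq on GRCh38 for 27740 genes (99.55% of the table). No symbol was found for 63.

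The model was fitted to these counts by edgeR 4.0.16 under R 4.3.3: filterByExpr, TMM scaling, 1 mean per group, and a 2-sided quasi-likelihood test of the difference of effects and of BYL719 against DMSO in each line, with Benjamini-Hochberg adjustment over all 16081 genes and a call at an adjusted p under 0.05. The SE is the log2 change divided by the square root of F. CPM use TMM-scaled library sizes. The design was checked on simulated counts. The alternatives tried were DESeq2 1.42.0, limma-voom (limma 3.58.1), RLE scaling, upper-quartile scaling, genes unfiltered or kept at 1 CPM or more in 3 libraries or more, a replicate block, a replicate block within genotype, each library left out in turn, both CTRL number-1 libraries left out, and, for a line's own effect, only that line's libraries. Leaving out all number-1 libraries was added after the data were seen. Where 1 NF1KO DMSO library was left, its spread was taken to equal that of the remaining groups.

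The genes, lists and comparison were chosen with earlier results of these data known. Named by rule were NF1, MCM2, PLK1, GATA4, CPA4, the 8 largest called differences in each of 4 classes (protein-coding, mean log2 CPM with prior count 2 of at least 2), and up to 4 members per list by adjusted p. Any other gene was named after its values were seen. Promoters of 250 bases before to 50 after the start were taken from RefSeq. Figures used matplotlib 3.10.9.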

Additional observations from a re-analysis of the deposited data

Results flagged for a closer look

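The difference of effects is a test between the lines, and its calls, 914 genes above 0 and 596 below 0, stand out for that reason. Among named genes with a called change in each line and opposite directions, the difference was -3.77 for KLK5, -2.90 for KRT81, -2.24 for GDF15, -1.65 for IVL, -1.52 for GRHL3, -1.29 for ALOXE3, -1.14 for FGFR4, -1.12 for ZYX, -1.10 for KRT7, -0.94 for TNFRSF12A and -0.93 for S100A16, all raised in CTRL and lowered in NF1KO. It was 0.43 for GUSB, 0.65 for FADS1, 0.91 for PYGL, 1.37 for MAOA, 1.40 for KCNE4, 1.45 for GFRA1, 1.704 for LRG1 and 1.81 for HAUS1, all lowered in CTRL and raised in NF1KO. The CTRL call was lost in 15 of 22 alternatives for KCNE4, 11 for GUSB, 9 for S100A16, and 4 each for FGFR4 and IVL. Of these 19 genes, 6 kept the call in both lines in all alternatives run (FADS1, GDF15, GFRA1, HAUS1, MAOA and PYGL), and 11 lost the NF1KO call without an NF1KO DMSO library.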

How the results depend on the processing

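No called result reversed its direction under any alternative run. Differences near 0 that were not called did change sign, such as that of SLC7A11 (-0.61 to 0.11) and of DUSP6 (-0.21 to 0.42). Scaling, filters, DESeq2, limma-voom and the plain replicate block kept the counts of the difference within 1.5 times, and the median of all genes moved by less than 0.1 on the log2 scale. Leaving out 1 library gave 495 to 1233 genes above 0 and 243 to 922 below 0. Dropping the CTRL number-1 libraries gave 1393 and 1018, and dropping every number-1 library, an alternative chosen after seeing the data, gave 1521 and 1062.

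Equal replicate numbers correlated at 0.59, 0.34 and 0.32 across genes in CTRL, and unequal numbers at -0.42 to 0.23. In NF1KO equal numbers correlated at 0.084 and 0.15, and unequal numbers at -0.15 to 0.080. With 2 NF1KO DMSO libraries these deviations mirror each other, so the NF1KO values cannot decide on pairing. Pairing was not taken as given, and the main fit held no replicate block. With the replicate block within genotype the difference was called for 2403 genes above 0 and 1942 below. In NF1KO, BYL719 against DMSO gave 2503 higher and 2161 lower genes with the replicate block, 3505 and 3239 with the block within genotype, 2764 and 2548 when the CTRL number-1 libraries were dropped, 2736 and 2483 when every number-1 library was, and 459 to 2104 higher and 329 to 1858 lower without 1 library. In CTRL no count moved by 1.5 times.

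Of 141 named genes called for the difference, 91 kept the call in all 21 alternatives and 50 lost it in at least 1. Many of them were named for a large difference or a small adjusted p, so these counts do not describe all called genes. For genes at a few CPM or less, and wherever NF1KO DMSO with 2 libraries decides, smaller differences were not detectable at this depth and number of libraries.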
